A study of Mus musculus with 24 samples.

Results

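The comparison described here was that of Cux2 neurons with Tle4 neurons at postnatal day 1 (P1), made on the list of open chromatin regions of each class. The Cux2 P1 list held 21747 peaks on chromosomes 1 to 19 and X and the Tle4 P1 list held 19508, so that 41255 of the 292908 peaks in all 12 lists of the series were used. A peak was called class-only (Cux2-only or Tle4-only) when no peak of the other P1 list overlapped it by 1 bp, and shared otherwise. By this rule 10147 Cux2 peaks were Cux2-only and 11600 were shared, and 7970 Tle4 peaks were Tle4-only and 11538 were shared. Those 46.7% and 40.9% are the backgrounds for every count of class-only peaks below.

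Both groups were pups of a mixed C57BL/6J background that carried the Ai14 tdTomato reporter, with Cux2-CreERT2 in one group and Tle4-2A-CreERT2 in the other, from transgenic sires and wild-type dams. Cre was induced late in gestation by 4-hydroxytamoxifen given to the dam. Somatosensory cortex and part of motor cortex was dissected at P1, tdTomato-positive cells were sorted, and each library was a pool of animals of both sexes from more than 1 litter. Each group had 2 replicates, which the authors joined into 1 list, so no replicate error can be given for a P1 value and no test between the classes was possible at P1. The study's methods state that the Cux2-CreERT2 line also marks a subset of cortical interneurons, and these are bulk samples in which fewer cells of a type and less signal per cell cannot be told apart.

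Cux2-lineage neurons sorted at this age are callosal projection neurons (CPNs) of the upper cortical layers, which send axons to the opposite hemisphere. Tle4-lineage neurons are corticothalamic projection neurons (CThPNs) of the deepest layer, which send axons to the thalamus. ATAC-seq uses a transposase that cuts DNA where nucleosomes are absent, and the peaks it gives lie at promoters, at distal elements such as enhancers and at sites of the insulator protein CTCF.

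The regions below were the strongest class-only peaks, by fold enrichment at the summit, that also recurred at all 5 other ages of their own class and were absent from every list of the other class. Each run is 300 bases of the plus strand of NCBIM37 (mm9) centred on the summit, and capitals mark every exact match, on either strand, to one of the 20 short motifs searched. The first was in an intron of Slit3, which encodes a secreted axon guidance ligand, 84.1 kb from the nearest annotated protein-coding transcription start site (TSS), at chr11:35075228-35075527. Its single match was the POU octamer, read here as the reverse complement.
Cux2-only, Slit3 intron: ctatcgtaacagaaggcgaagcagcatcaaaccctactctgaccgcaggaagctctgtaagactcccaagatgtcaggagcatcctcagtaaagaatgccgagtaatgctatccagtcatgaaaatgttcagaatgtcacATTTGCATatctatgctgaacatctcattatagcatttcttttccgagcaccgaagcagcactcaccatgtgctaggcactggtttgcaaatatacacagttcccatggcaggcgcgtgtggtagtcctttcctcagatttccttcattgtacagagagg
The second Cux2-only region was intergenic, 38.2 kb from a TSS of Cnr1, the CB1 cannabinoid receptor gene, at chr4:34051256-34051555, and held none of the 20 motifs.
Cux2-only, near Cnr1: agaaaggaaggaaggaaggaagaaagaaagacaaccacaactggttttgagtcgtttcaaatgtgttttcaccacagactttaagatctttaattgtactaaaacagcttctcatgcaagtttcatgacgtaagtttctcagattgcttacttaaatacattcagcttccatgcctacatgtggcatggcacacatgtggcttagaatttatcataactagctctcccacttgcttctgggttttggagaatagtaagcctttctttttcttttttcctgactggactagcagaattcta
The first Tle4-only region was intergenic and far from any gene, with the nearest protein-coding TSS, that of the cell adhesion gene Ncam2, 447 kb away. It lies at chr16:81879974-81880273 and held a MEIS match and an E-box of the form CAGATG.
Tle4-only, intergenic, nearest Ncam2: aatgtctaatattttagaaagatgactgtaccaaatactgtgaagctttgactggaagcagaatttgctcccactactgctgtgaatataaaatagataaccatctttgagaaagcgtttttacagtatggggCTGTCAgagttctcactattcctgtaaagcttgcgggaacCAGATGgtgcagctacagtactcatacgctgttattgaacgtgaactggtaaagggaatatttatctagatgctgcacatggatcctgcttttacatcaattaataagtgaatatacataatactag
The second Tle4-only region was intergenic at chr16:49380808-49381107, 83.5 kb from the predicted gene Gm5407, and held none of the motifs.
Tle4-only, intergenic, nearest Gm5407: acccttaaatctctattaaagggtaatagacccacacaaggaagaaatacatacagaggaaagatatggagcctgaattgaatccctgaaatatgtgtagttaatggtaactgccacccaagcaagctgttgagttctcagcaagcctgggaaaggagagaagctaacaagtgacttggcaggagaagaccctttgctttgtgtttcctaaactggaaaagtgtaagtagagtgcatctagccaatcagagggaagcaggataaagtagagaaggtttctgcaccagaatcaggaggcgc

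These regions had summit fold enrichments of 18.9 (Slit3), 18.04 (Cnr1), 17.8 (Ncam2) and 17.1 (Gm5407) over the background that the peak caller estimates, and their percentiles within their own lists were between 92.3 and 94.5. The next 3 of the kind were intergenic with St6gal2 and Tmem18 as nearest genes and in an intron of Fig4 for Cux2, and in Fnip1, nearest Myc and in an intron of Lmo7 for Tle4. The Fnip1 summit lay in a coding exon, and the region nearest Myc was 738 kb from its TSS. Only 34 Tle4-only peaks, 0.427% of the set (95% Wilson interval 0.305 to 0.596%), were in all 5 other Tle4 lists and no Cux2 list, against 561 Cux2-only peaks in the corresponding pattern (5.53%, 5.10 to 5.99%). The late Tle4 lists were much shorter than the late Cux2 lists (6538 and 11836 peaks at P21 and P48 against 37426 and 45642), and their part in this gap was not tested. All intervals given here cover counting error only.

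Class-only peaks were mostly distal, and the Cux2-only set reached promoters more often than the Tle4-only set. Of the Cux2-only peaks 18.4% (17.6 to 19.1%) overlapped a window of 1 kb either side of an annotated TSS, against 7.26% (6.72 to 7.86%) of Tle4-only peaks and 61.0% (60.1 to 61.8%) of the shared Cux2 peaks. Introns held 35.5% of Cux2-only and 36.6% of Tle4-only peaks, while intergenic sequence held 43.9% (43.0 to 44.9%) and 54.4% (53.3 to 55.5%). Tle4-only peaks lay farther from genes, at a median of 58.1 kb from the nearest protein-coding TSS against 26.1 kb for Cux2-only peaks. A summit more than 100 kb from any such TSS was found for 36.9% (35.8 to 38.0%) of Tle4-only peaks, 23.9% (23.1 to 24.8%) of Cux2-only peaks and 9.56% (9.04 to 10.1%) of shared Cux2 peaks. With both lists restricted to peaks above one common −log10 p, the promoter shares were 17.5% for Cux2-only and 11.6% for Tle4-only peaks.

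**Figure D1:**
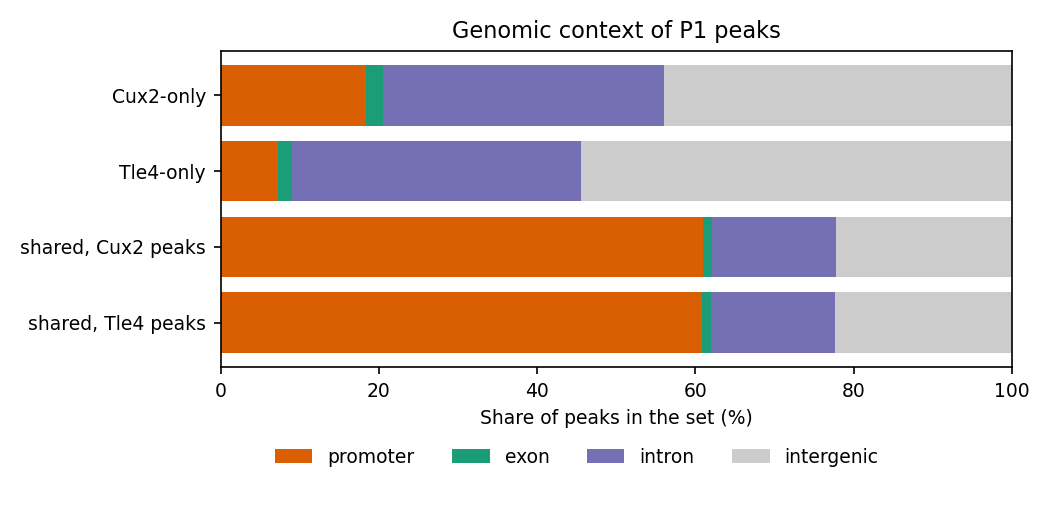
Stacked bars show the share of peaks (x axis, %) in promoters (within 1 kb of a TSS), exons, introns and intergenic sequence for the 4 sets of P1 peaks, shared peaks being shown once from each list. The promoter segment is 18.4% for Cux2-only, 7.26% for Tle4-only and 61.0% and 60.9% for the shared peaks.

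Seen from the promoters, 20.9% (20.0 to 21.7%) of the 8936 promoter peaks of the Cux2 list had no counterpart in the Tle4 list, and 7.62% (7.04 to 8.23%) of the 7602 promoter peaks of the Tle4 list had none in the Cux2 list. Distal peaks were closer in this respect, with 64.7% (63.8 to 65.5%) class-only in the Cux2 list and 62.1% (61.2 to 62.9%) in the Tle4 list. The lists ended at different depths, a −log10 p of 13.4 for Cux2 and 17.4 for Tle4. With a common threshold 33.5% of all Cux2 peaks and 49.5% of all Tle4 peaks were class-only. No order of the classes is therefore drawn from the promoter and distal shares. The class-only promoters were poorer in CpG than the shared ones. A window with more than 50% GC and a CpG observed/expected ratio above 0.6 was found in 56.3% of Cux2-only, 40.2% of Tle4-only and 80.4% of shared Cux2 promoter peaks. Distal GC content was similar, with medians of 43.7% in Cux2-only and 43.3% in Tle4-only peaks, whereas the median distal CpG observed/expected ratio was 0.255 (interquartile range 0.143 to 0.389) and 0.194 (0.0976 to 0.305).

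Most strong peaks were common to both classes. The median Cux2-only peak stood at the 34.4th percentile of fold enrichment in its own list and the median Tle4-only peak at the 37.4th, against 68.1 and 61.7 for shared peaks. In the strongest decile 43 of the Cux2 peaks (1.98%) and 90 of the Tle4 peaks (4.61%) were class-only. Among promoter peaks the Cux2 list had the larger class-only share in each of the 8 weaker deciles, with intervals that did not overlap. The deciles were not repeated with a common −log10 p threshold, so this difference may reflect where the lists ended, which was not tested. Among distal peaks the Tle4 list had the larger share in the top deciles, 45.0% (41.6 to 48.4%) against 35.8% (32.5 to 39.3%) in decile 9 and 27.7% (23.0 to 32.9%) against 12.8% (9.47 to 17.1%) in decile 10.

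**Figure D2:**
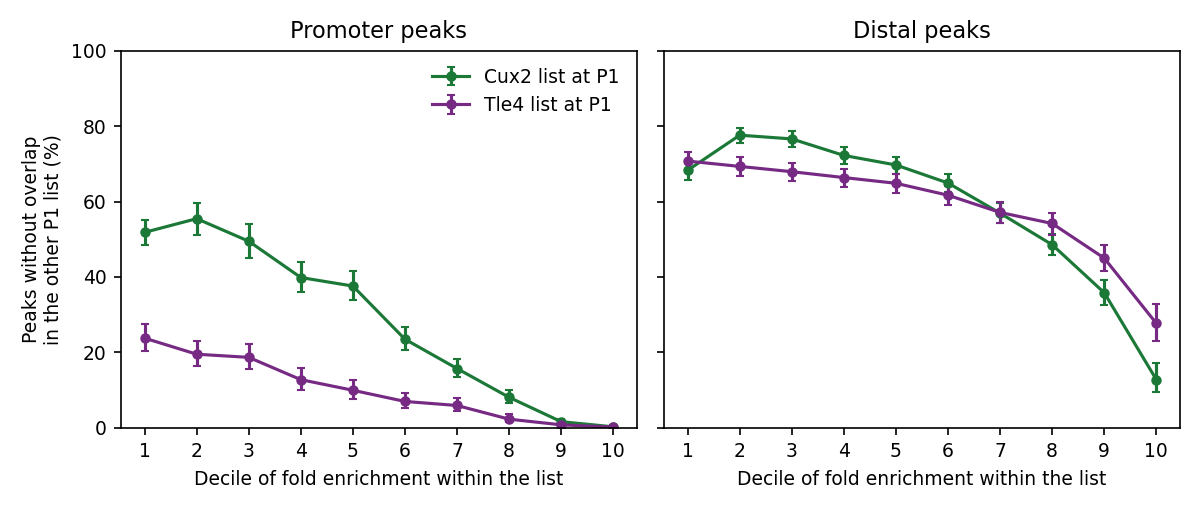
Points give the share of peaks with no overlap in the other P1 list (y axis, %) by decile of fold enrichment within a list (x axis, decile 1 is the weakest), for promoter peaks (left) and distal peaks (right), and bars are 95% Wilson intervals. Among distal peaks of decile 10 the share is 12.8% in the Cux2 list and 27.7% in the Tle4 list.

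The order of the class-only shares depended on where the lists ended. The weakest Cux2 peak had a −log10 p of 13.4 and the weakest Tle4 peak one of 17.4, so the Cux2 list ran deeper on that scale, which is itself set by sequencing depth that the lists do not give. With both lists restricted to the higher of these values the shares were 33.5% Cux2-only and 49.5% Tle4-only, which is the opposite order. With the strongest 9754 peaks of each list by −log10 p they were 38.9% and 39.2%. No statement on which class had more private regions at P1 can therefore be made.

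The strongest class-only peaks were all in introns or between genes. For Cux2 they were in an intron of Clybl (fold enrichment 22.9), which encodes a mitochondrial enzyme, 203 kb from 3110018I06Rik (21.1), 79.6 kb from Spata13 (20.2), in an intron of Sgpp2 (20.1) and in an intron of Tmem108 (19.6). For Tle4 they were 27.3 kb from C1ql3 (22.0), which encodes a secreted synaptic C1q-like protein, 187 kb from Eya4 (20.8), 167 kb from Cox7b2 (20.5), in an intron of Csmd2 (20.2) and 187 kb from Bcl6 (20.0), a transcriptional repressor gene. The peaks nearest C1ql3 and Eya4 and that in Csmd2 were each found again in the Tle4 lists of E18.5, P3 and P7 and in no Cux2 list. The Bcl6 and Cox7b2 regions were present in all 5 other Tle4 lists but also in the Cux2 lists of P21 and P48, and the Cox7b2 region in that of E18.5 as well. The Clybl region was found again in the Cux2 lists of E18.5 and P3 alone, while the Spata13 region was in all 5 other Cux2 lists and in the Tle4 lists of P21 and P48.

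Lists of other ages, which the choice of the peaks did not use, kept the division at E18.5, P3 and P7, and at P21 and P48 the sets lay much closer together. Of the Cux2-only peaks 77.4%, 78.0% and 57.1% were overlapped in the Cux2 lists of E18.5, P3 and P7, against 25.6%, 18.8% and 23.1% of the Tle4-only peaks. In the Cux2 lists of P21 and P48 the shares were 26.5% (25.7 to 27.4%) and 35.7% (34.8 to 36.7%) of Cux2-only peaks, and 27.1% (26.1 to 28.1%) and 31.4% (30.4 to 32.5%) of Tle4-only peaks. The difference in the Cux2 lists was 51.8, 59.2, 33.9, −0.58 and 4.30 percentage points from E18.5 to P48, a mean of 29.7 ± 27.1 (SD, n = 5 ages). It was positive at 4 of 5 ages (exact two-sided sign-flip permutation test, p = 0.125, adjusted p = 0.125).

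In the Tle4 lists 66.1%, 83.01% and 45.5% of Tle4-only peaks were found at E18.5, P3 and P7, against 13.1%, 18.02% and 10.3% of Cux2-only peaks. At P21 and P48 the shares were 6.98% and 14.5% against 3.23% and 7.76%. The difference was 53.0, 65.0, 35.1, 3.74 and 6.77 percentage points, a mean of 32.7 ± 27.3 (SD, n = 5 ages), and was positive at 5 of 5 ages (exact two-sided sign-flip permutation test, p = 0.0625, adjusted p = 0.125). With 5 ages the smallest p this test can give is 0.0625, so neither result could pass 0.05. The ages of a class are separate libraries of the same line, and the spread between them is one of ages and not of replicates. Shared P1 peaks were found in 96.2%, 96.2%, 90.5%, 65.0% and 80.0% of cases in the Cux2 lists and in 86.9%, 95.3%, 71.2%, 34.8% and 46.7% in the Tle4 lists.

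**Figure D3:**
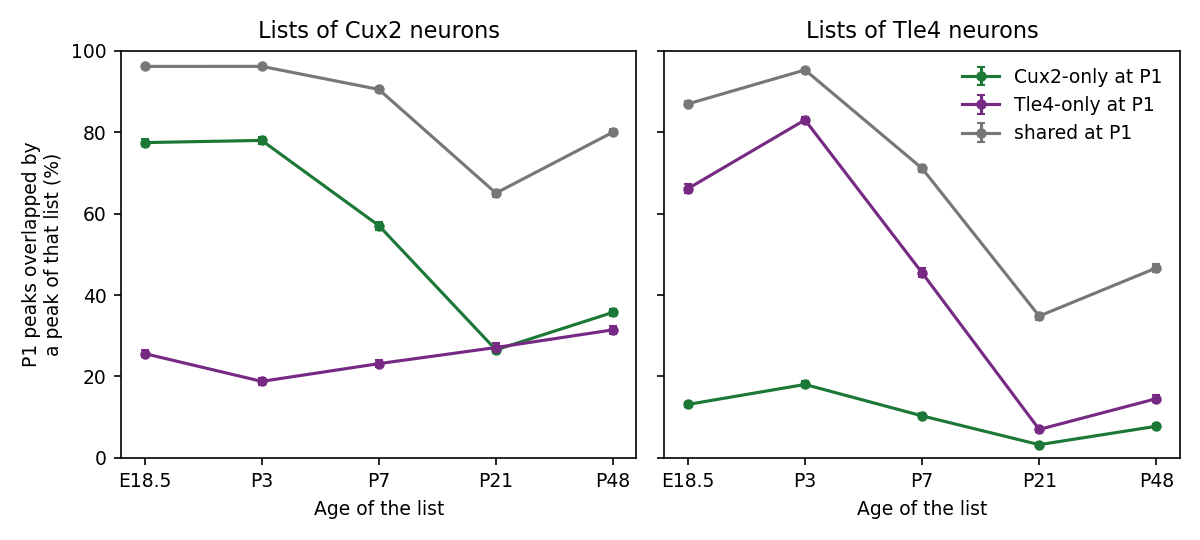
Points give the share of P1 peaks (y axis, %) overlapped by a peak of the Cux2 lists (left) or the Tle4 lists (right) at each other age (x axis), with 95% Wilson intervals, for Cux2-only, Tle4-only and shared P1 peaks. In the Cux2 lists the Cux2-only and Tle4-only lines meet at P21, at 26.5% and 27.1%.

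Tle4-only peaks of P1 were more often found in the late Cux2 lists than in the late Tle4 lists. Of the Tle4-only peaks 1871 (23.5%, 22.6 to 24.4%) were in both late Cux2 lists and 428 (5.37%, 4.90 to 5.89%) in both late Tle4 lists, and 1096 were in both late Cux2 lists and in no late Tle4 list. There were 668 Tle4-only peaks in both late Cux2 lists and in none of the Cux2 lists of E18.5, P3 and P7. The converse was rare, with 66 Cux2-only peaks in both late Tle4 lists and no early Tle4 list, but the late Tle4 lists were short. With every list of another age restricted to its 6538 strongest peaks by −log10 p, the late Cux2 lists held 4.62% and 4.69% of the Tle4-only peaks and 3.85% and 3.17% of the Cux2-only peaks, and the late Tle4 lists held 6.98% and 7.15% of the Tle4-only and 3.23% and 3.30% of the Cux2-only peaks. At this equal length the late Tle4 lists held the larger share of Tle4-only peaks, and the mean difference in the Cux2 lists was 4.30 percentage points. Most class-only peaks were in no late list of either class, 59.1% (58.2 to 60.1%) of Cux2-only and 61.0% (59.9 to 62.0%) of Tle4-only peaks. At the other end, 430 Cux2-only and 362 Tle4-only peaks were in no other list of the series.

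The class-only distal peaks differed in the short motifs they held. Exact matches on both strands were counted in the 300 bases around the summit of 8283 Cux2-only and 7391 Tle4-only distal peaks, and the share over all 24717 distal P1 peaks (shared regions counted once per list) served as background. The Wilson intervals of both sets were apart for 13 of the 20 motifs, 10 of which were more frequent in Cux2-only and 3 in Tle4-only peaks. The core of the CTCF site was in 5.14% (4.69 to 5.64%) of Cux2-only, 0.704% (0.537 to 0.921%) of Tle4-only and 5.12% of shared Cux2 peaks, with a background of 3.80%. A match is a description of the letters and does not show that a factor was bound.

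The other motifs that were more frequent in Cux2-only peaks were sites of several factor families. The ZBTB18 site ACATCTGG, which is bound by a repressor of the developing cortex and whose reverse complement contains the E-box CAGATG, was in 1.74% (1.48 to 2.04%) of Cux2-only and 0.419% (0.296 to 0.595%) of Tle4-only peaks, with a background of 0.939%. The SOX site ACAATGG was in 4.20% and 1.15%, the homeodomain site TAATTA of LHX and EMX factors in 12.4% and 5.83%, the POU octamer ATGCAAAT in 6.13% and 3.18%, and the GC box GGGCGG of SP and KLF factors in 6.27% and 2.67%. Their backgrounds were 2.57%, 8.55%, 4.62% and 7.28%. The E-box CAGCTG was in 23.0% and 13.9% (background 17.4%), whereas the E-box CAGATG of NEUROD and NEUROG factors was in 31.5% and 33.1% (background 31.5%), with intervals that overlapped. The forkhead site TGTTTAC (4.77% and 2.98%, background 3.74%), the ROR site TAGGTCA (1.27% and 0.731%, background 1.12%) and the MEIS site TGACAG (28.0% and 20.6%, background 23.7%) were also higher in Cux2-only peaks.

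More frequent in Tle4-only peaks were the T-box site AGGTGTGA, bound by TBR1 of deep-layer neurons, in 0.934% (0.738 to 1.18%) against 0.495% (0.365 to 0.671%) of Cux2-only peaks, with a background of 0.720%. The cut homeodomain site ATCGAT, named for CUX and ONECUT factors, was in 0.893% (0.703 to 1.13%) of Tle4-only and 0.410% (0.294 to 0.573%) of Cux2-only peaks, with a background of 0.672%. The MEF2 site was in 8.46% (7.84 to 9.11%) and 6.95% (6.43 to 7.52%), with a background of 7.78%. For the AP-1 site TGANTCA (10.6% of Tle4-only and 9.71% of Cux2-only peaks, background 9.94%) and the sites of NFI, RFX, CRE, EGR and NR4A factors the intervals overlapped. When the sets were weighted to one GC distribution, the GC box shares became 5.53% in Cux2-only and 3.30% in Tle4-only peaks and all 13 directions were kept. A repeated 20-base word, with at least 10 copies in the genome, was found in 17.5% of Cux2-only and 15.8% of Tle4-only distal windows.

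To show such sites in their context, the strongest distal class-only window without a repeated word is given for 5 motifs, chosen after their shares were known. Each run is 120 bases of the plus strand of NCBIM37 centred on the summit, and capitals mark the motif. The CTCF core was at chr15:59928803-59928922, intergenic and 80.7 kb from 4933412E24Rik.
CTCF, Cux2-only: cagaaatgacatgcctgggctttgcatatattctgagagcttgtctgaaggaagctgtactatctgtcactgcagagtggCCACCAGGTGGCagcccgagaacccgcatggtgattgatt
The ZBTB18 site, read as its reverse complement, was at chr9:81432120-81432239, intergenic and 94.0 kb from Htr1b, a serotonin receptor gene, and this peak was in all 5 other Cux2 lists and no Tle4 list.
ZBTB18, Cux2-only: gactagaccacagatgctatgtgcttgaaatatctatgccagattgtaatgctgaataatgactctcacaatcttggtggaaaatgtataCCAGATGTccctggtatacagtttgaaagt
The SOX site, also read as its reverse complement, was at chr4:116529868-116529987, intergenic and 20.1 kb from Zswim5.
SOX, Cux2-only: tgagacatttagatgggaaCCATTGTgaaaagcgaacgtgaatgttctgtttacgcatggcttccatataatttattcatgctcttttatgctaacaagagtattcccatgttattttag
The MEF2 site was at chr1:53161881-53162000, intergenic and 43.4 kb from Mstn.
MEF2, Tle4-only: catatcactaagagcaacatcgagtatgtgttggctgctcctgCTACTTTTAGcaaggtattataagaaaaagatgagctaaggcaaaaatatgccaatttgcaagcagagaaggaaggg
The T-box site, read as its reverse complement, was at chr6:14013893-14014012, intergenic and 57.9 kb from the predicted gene Gm3109, in a peak found in all 5 other Tle4 lists and no Cux2 list.
T-box, Tle4-only: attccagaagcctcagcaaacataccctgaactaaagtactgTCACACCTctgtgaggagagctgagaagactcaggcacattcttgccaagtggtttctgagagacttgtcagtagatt

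**Figure D4:**
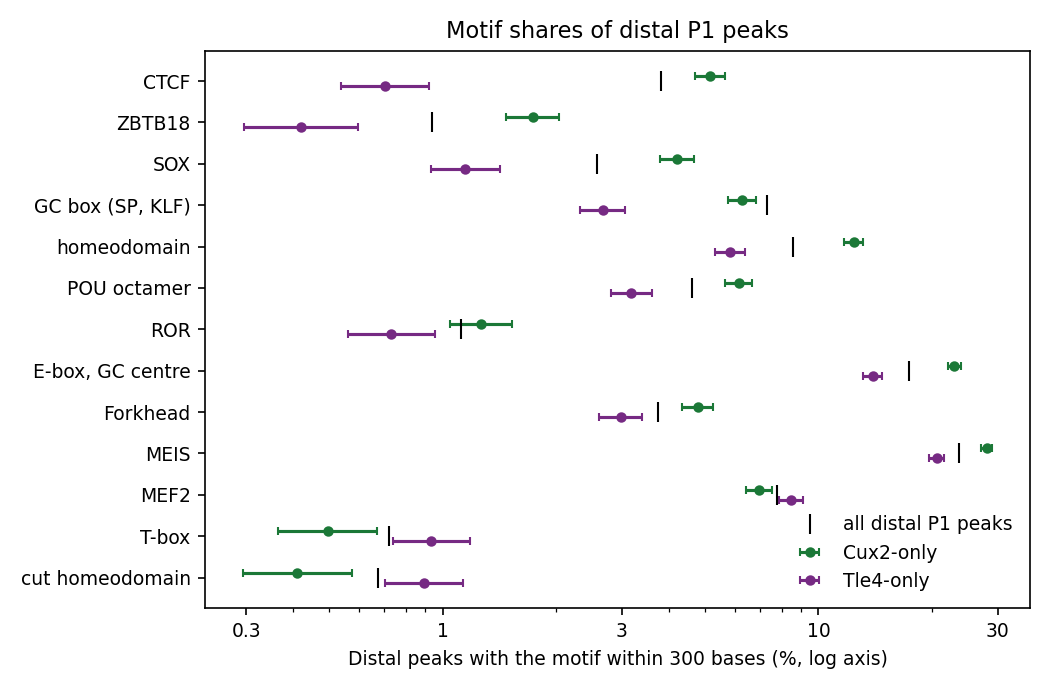
Points give the share of distal P1 peaks that held each motif within 300 bases (x axis, %, log scale) for Cux2-only and Tle4-only peaks, with 95% Wilson intervals, and black ticks give all distal P1 peaks. The 13 motifs shown are those with intervals apart, from CTCF (5.14% and 0.704%) at the top to the cut homeodomain site (0.410% and 0.893%) at the bottom.

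The CTCF core was scarcer in Tle4-only peaks at each degree of persistence examined. Among distal Cux2-only peaks it was in 7.05% (5.70 to 8.69%) of the 1135 found in all 5 other Cux2 lists and in 3.64% (3.16 to 4.18%) of the 5195 found in neither late Cux2 list. Among distal Tle4-only peaks it was in 3 of the 243 found in all 5 other Tle4 lists (1.23%, 0.421 to 3.57%) and in 0.628% (0.459 to 0.857%) of the 6214 found in neither late Tle4 list. The homeodomain site had the opposite course in Cux2-only peaks, at 9.34% (7.78 to 11.2%) of those in all 5 other lists and 14.4% (13.5 to 15.4%) of those in neither late list.

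Peaks were then assigned to the nearest protein-coding TSS within 100 kb, which gave 7717 Cux2-only and 5029 Tle4-only peaks over 22350 genes. More Cux2-only than Tle4-only peaks were assigned to 19.3% of the genes, and more Tle4-only than Cux2-only peaks to 9.94%. Assignment to the nearest gene is a rule of distance and does not show which gene a region acts on. With a common −log10 p threshold, these shares became 9.40% and 15.7%, so a gene list is read below against all genes and not against equality.

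CThPN markers and markers of subplate and layer 6b had the lowest Cux2-only shares of the 15 gene lists. Of the 73 class-only peaks near 32 CThPN marker genes 47 were Tle4-only, which left a Cux2-only share of 35.6% (25.6 to 47.1%) against 60.5% (59.7 to 61.4%) over all genes. More Tle4-only peaks were near 15 of these genes and more Cux2-only peaks near 5. For 14 markers of subplate and layer 6b the counts were 29 Tle4-only and 8 Cux2-only peaks, a Cux2-only share of 21.6% (11.4 to 37.2%), with 11 genes on the Tle4 side and 1 on the Cux2 side. The median difference per gene was −1.5 peaks in that list and 0 over all genes. With the common −log10 p threshold the Cux2-only shares were 18.46% for CThPN markers, 10.8% for subplate and layer 6b markers and 37.1% over all genes. Some lists without a layer meaning were also below all genes. Cadherin genes were at 43.5% (30.2 to 57.8%), and with that threshold potassium channel genes were at 23.2%. For layer 5 projection neuron markers (44.4%, 27.6 to 62.7%) the interval included the share over all genes.

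The Cux2-only share of CPN markers was not set apart from that of all genes. Near 35 CPN marker genes there were 38 Cux2-only and 33 Tle4-only peaks, with 11 genes on the Cux2 side, 9 on the Tle4 side and 7 tied. The Cux2-only share was 53.5% (42.0 to 64.6%), an interval that included the 60.5% over all genes. With the common −log10 p threshold there were 24 and 37 peaks, a share of 39.3% against 37.1% over all genes. Relative to all genes, promoter peaks of CPN markers were more often called in the list of one class alone. A promoter peak in the Cux2 list alone was found for 8 of the 35 genes (Cux1, Cux2, Hspb3, Inhba, Lhx2, Nrp1, Ptn and Rasgrf2) and in the Tle4 list alone for 2 (Cdh13 and Ddit4l), while over all protein-coding genes these shares were 6.69% and 1.81%. Of the 32 CThPN markers, Foxp2, Nfib, Slc26a8 and Tbr1 had a promoter peak in the Tle4 list alone and Igfbp4, Rprm and Zfpm2 in the Cux2 list alone. Promoter calls were not repeated with a common −log10 p threshold. The Cux1 promoter peak had a −log10 p of 13.5, below the 17.4 at which the Tle4 list ended. Those of Cux2 (19.6) and Lhx2 (35.1) lay above it.

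**Figure D5:**
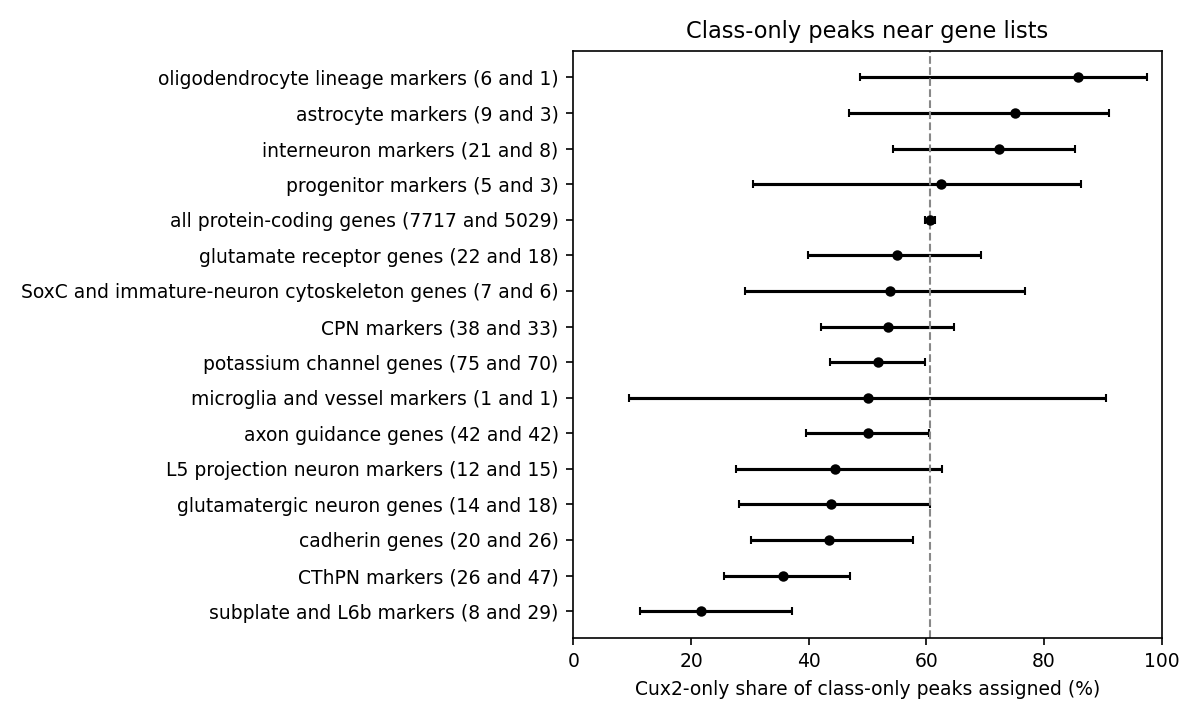
Points give the Cux2-only share (x axis, %) of the class-only peaks assigned to each gene list, with 95% Wilson intervals and, in brackets, the numbers of Cux2-only and Tle4-only peaks. The dashed line is the share over all protein-coding genes, 60.5%, and the intervals of CThPN markers, subplate and layer 6b markers, cadherin, potassium channel and, at its edge, axon guidance genes lie below it.

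The genes that give the classes their names had more class-only peaks of their own class, on small counts. Over all genes 60.5% of class-only peaks were Cux2-only, so the counts at Cux2 and Cux1 alone do not set these genes apart. Cux2, a cut homeodomain factor of upper layers, had 3 Cux2-only peaks and 1 Tle4-only peak. The Cux2-only peaks lay in the gene, at chr5:122322284-122322562, chr5:122354731-122355145 and, within 1 kb of an internal TSS, chr5:122374471-122374795, with fold enrichments of 10.99, 11.8 and 9.23, and none of them was in a Tle4 list of any age. Its paralogue Cux1 had 4 Cux2-only peaks, 3 intronic and 1 at a TSS, none of them in a Tle4 list, and 1 Tle4-only peak. Tle4, a Groucho corepressor of layer 6, had 4 Tle4-only peaks and no Cux2-only peak. These lay between 31.7 and 98.5 kb from a TSS of the gene, with fold enrichments from 5.54 to 9.48, and 3 of the 4 recurred in the Tle4 lists of E18.5, P3 and P7. The peak at 98.5 kb was also in the Cux2 list of E18.5, and that at 46.9 kb in the Cux2 list of P48. The promoter peak of Tle4 was shared, with a fold enrichment of 17.1 in the Cux2 list, and was in all 10 lists of other ages.

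Several transcription factors of deep layers had more Tle4-only than Cux2-only peaks, and others had none in surplus. Fezf2, a zinc finger factor that specifies subcortical projection neurons, had 7 Tle4-only peaks and 1 Cux2-only peak. Of the 7 peaks, 3 were intergenic at 5.46, 14.1 and 20.9 kb from the Fezf2 TSS, and 4 lay within the neighbouring gene Cadps at 32.1 to 91.2 kb, 1 of them near a TSS there, so that the assignment to Fezf2 is by distance alone. The intergenic peak chr14:13157287-13157686 was in the Tle4 lists of E18.5, P3 and P7 and in no Cux2 list. Foxp2, a forkhead factor of layer 6, had 4 Tle4-only peaks and no Cux2-only peak, one of them at its TSS (chr6:14850424-14851362, fold enrichment 7.07) and 3 in introns. The peak at the TSS recurred in the Tle4 lists of E18.5 and P3 and was also in the Cux2 lists of E18.5, P3 and P7. Tbr1, the T-box factor of layer 6, had 2 Tle4-only peaks and no Cux2-only peak, 1 of them 4.73 kb away in the neighbouring gene Psmd14. The peak over its TSS, chr2:61641582-61642918 with a fold enrichment of 7.15, was in all 5 other Tle4 lists and in the Cux2 lists of E18.5 and P7.

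Nfia, of the nuclear factor I family, had 5 Tle4-only peaks and no Cux2-only peak, and Nfib had 3 and 1. Of the remaining factors Sox5 had 2 Tle4-only and 1 Cux2-only peak, while Bcl11b (2 and 2), Zfpm2 (1 and 1), Lhx2 (2 and 2) and Pou3f3 (1 and 1) had equal counts. Rorb had 1 Tle4-only peak and Pou3f2 had none of either kind. Neurod6 had 2 Tle4-only peaks and 1 Cux2-only peak, and Neurod2 had 1 Cux2-only peak, at its TSS. Among subplate genes Drd1a, the dopamine D1 receptor, had 6 Tle4-only peaks and no Cux2-only peak, of which that at the TSS was in no other list, and Cck, a neuropeptide gene, had 3 and 0. Pappa2 had 4 Tle4-only peaks and 1 Cux2-only peak and Kcnab1 had 4 and 2, whereas Moxd1 had 3 Cux2-only peaks and no Tle4-only peak. Grik3 (4 Cux2-only and 1 Tle4-only) and Thsd7b (5 and 2) were CThPN markers on the Cux2 side.

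For each of the 5 lists of markers of other cell types (interneurons, astrocytes, the oligodendrocyte lineage, microglia and vessels, and progenitors) the interval of the Cux2-only share included the share over all genes. Near the 26 interneuron markers there were 21 Cux2-only and 8 Tle4-only peaks, a Cux2-only share of 72.4% (54.3 to 85.3%). A promoter peak in the Cux2 list alone was found for 6 of these genes, Calb2, Cxcr4, Dlx5 and Reln among them, or 23.1% against 6.69% of all genes, and in the Tle4 list alone for none. The promoter peak of Dlx5 had a −log10 p of 15.9, below the 17.4 at which the Tle4 list ended. Dlx5 and Maf, transcription factors of the interneuron lineage, had 3 Cux2-only peaks each and 0 and 1 Tle4-only peaks. The defining genes Gad1, Gad2, Slc32a1 and Lhx6 had no promoter peak in either list. Such absence was found for 18 of the 26 markers, or 69.2%, and for 57.7% of all protein-coding genes. Gad1 and Gad2 had no assigned peak of any kind, and Dlx1 had 1 Cux2-only peak. With the common −log10 p threshold the interneuron counts were 9 Cux2-only and 8 Tle4-only peaks, a Cux2-only share of 52.9% against 37.1% over all genes. The part of interneurons in the Cux2-only set was not tested here.

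Astrocyte and radial glia markers (9 Cux2-only and 3 Tle4-only peaks near 12 genes) and oligodendrocyte lineage markers (6 and 1 near 10 genes) had Cux2-only shares of 75% (46.8 to 91.1%) and 85.7% (48.7 to 97.4%). With the common −log10 p threshold the counts were 4 and 4 for astrocyte, 3 and 1 for oligodendrocyte and 3 and 3 for progenitor markers. The Cux2-only shares were then 50%, 75% and 50%, on few peaks, against 37.1% over all genes. A promoter peak in the Cux2 list alone was found at Gfap, Id3 and Sox9, or 25% of the astrocyte markers. It was found at Olig1, or 10% of the oligodendrocyte markers, against 6.69% of all genes. The other 9 markers of each of these lists had no promoter peak in either list of peaks. None of the markers had one in the Tle4 list, where 35.7% of all genes had one. The Olig1 peak had a −log10 p of 13.6, below the 17.4 at which the Tle4 list ended, and the Sox9 peak one of 35.2. None of the 12 microglia and vessel markers had a promoter peak in either list, an absence also found for 57.7% of all protein-coding genes. Progenitor markers had 5 Cux2-only and 3 Tle4-only peaks near 12 genes. Promoter peaks in the Cux2 list alone were at Insm1, Pax6 and Vim, or 25% of these markers against 6.69% of all genes. No promoter peak in either list was found for 8 of the 12. Of 20 genes common to cortical excitatory neurons 7 had promoter peaks in both lists, or 35% against 33.8% of all protein-coding genes. These 20 genes had 14 Cux2-only and 18 Tle4-only peaks, a Cux2-only share of 43.8% (28.2 to 60.7%). With every peak within 50 kb of a TSS the counts were 16 and 10, a share of 61.5% against 68.7% over all genes. They were 6 and 20 with the common −log10 p threshold, 23.1% against 37.1%. The share was thus below that of all genes under each rule, although the interval above included the 60.5% over all genes. Snap25 (0 Cux2-only and 3 Tle4-only) and Syt1 (1 and 3), both of the synaptic release machinery, lay on the Tle4 side. With every peak within 50 kb of a TSS Snap25 had 0 and 2 but Syt1 had 1 and 1. Mtap2, which encodes the dendritic protein MAP2, lay on the Cux2 side (6 and 1), but had 2 and 2 with the common −log10 p threshold. Markers of layer 5 projection neurons had 12 and 15 peaks near 14 genes.

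Over all genes the largest surplus of Cux2-only peaks was at Abr, a regulator of small GTPases, with 8 Cux2-only and no Tle4-only peaks. It was followed by Shank2 (9 and 2) and Dlgap2 (10 and 5), both scaffold genes of the excitatory postsynapse, Arhgap15 (10 and 4), Cdk14 (7 and 1), Tmem108 (10 and 5) and Dscaml1, Mtap2, Nav3 and Slc28a3 (each 6 and 1). Of all class-only peaks assigned to genes 60.5% were Cux2-only, so the counts at Dlgap2, Tmem108 and Arhgap15 alone do not set these genes apart. The largest surplus of Tle4-only peaks, 8 peaks, was reached by Phactr1, a phosphatase and actin regulator (12 Tle4-only and 4 Cux2-only), Pdzd2 (11 and 3) and Cntn4, a contactin of the neuronal surface (9 and 1). They were followed by Dlg2 (10 and 3), a postsynaptic scaffold, Camk4 (8 and 1), a calcium-dependent kinase, Odz4 (10 and 4), Slc24a2 (7 and 1), Fezf2, Drd1a and Ipo5 (6 and 0). Many of these are long genes, which collect more peaks by this rule. With the common −log10 p threshold the Cux2-only and Tle4-only counts were 5 and 5 at Arhgap15 and 2 and 2 at Mtap2 and Nav3. The rest of the 10 genes on the Cux2 side kept a surplus, with 6 and 2 at Abr and 6 and 5 at Tmem108. With every peak within 50 kb of a TSS, Dlgap2 had 4 and 5. The genes named on the Tle4 side kept their surplus under both rules. At Cntn4 the peak chr6:105890243-105891169, with a fold enrichment of 15.0, was in all 5 other Tle4 lists and in the Cux2 lists of P21 and P48. At Abr the 8 Cux2-only peaks spread over the gene with fold enrichments from 7.68 to 12.3, and 1 of them was in all 5 other Cux2 lists.

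For gene families of wiring and excitability the share over all genes, to be read beside each count, was 60.5% Cux2-only, and it was 68.7% with every peak within 50 kb of a TSS and 37.1% with the common −log10 p threshold. The 73 axon guidance genes had 42 class-only peaks of each kind. On the Cux2 side were 16 of these genes (21.9%, against 19.3% of all genes) and on the Tle4 side 12 (16.4%, against 9.94%). Plxna2 (0 Cux2-only and 5 Tle4-only), Sema5a (1 and 5), Robo2 (1 and 3), Sema6d (1 and 3) and Ephb3 (4 and 0) differed most. With every peak within 50 kb of a TSS the 73 genes had 67 Cux2-only and 38 Tle4-only peaks, and with the common −log10 p threshold 20 and 55. The even split of counts thus depended on the rule, while the Cux2-only shares, 63.8% and 26.7%, stayed below those of all genes. The plexin, semaphorins and Roundabout receptor named here were on the Tle4 side and the Eph receptor on the Cux2 side. The 23 cadherin genes had 20 and 26 peaks (43.5%, 30.2 to 57.8%), with Cdh11 (4 and 0) on the Cux2 side and Cdh9 (0 and 3), Cdh10 (0 and 3), Cdh4 (1 and 3) and Cdh13 (1 and 3) on the Tle4 side. The 93 potassium channel genes had 75 and 70 peaks (51.7%, 43.7 to 59.7%), with Kcnd3 and Kcnma1 (4 and 0 each) and Kcnk2 and Kcnmb2 (3 and 0 each) on the Cux2 side and Kcnq3 (1 and 4) and Kcna10 (0 and 3) on the Tle4 side. The 26 glutamate receptor genes had 22 and 18 peaks, with Grid1 (4 and 2) and Grik3 (4 and 1) on the Cux2 side and Grm3 (0 and 5) and Grm7 (0 and 3) on the Tle4 side. Of the 14 SoxC and immature-neuron cytoskeleton genes 11 had a promoter peak in both lists, or 78.6% against 33.8% of all protein-coding genes. These 14 genes had 7 and 6 class-only peaks. With every peak within 50 kb of a TSS the counts were 17 and 5, and with the common −log10 p threshold 4 and 6. No gene named in these families was reversed under these rules, but several counts fell. Within 50 kb Kcnk2, Kcnmb2 and Grm3 had 0 and 0, and Kcnma1 had 1 and 0. With the common −log10 p threshold Kcnd3, Kcnma1 and Ephb3 had 1 and 0 each, and Grid1 had 2 and 2.

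Shared peaks were ordered alike in both lists at promoters and less so elsewhere. Each of the 11600 shared Cux2 peaks was paired with the Tle4 peak of largest overlap. The Spearman correlation of their percentile ranks of fold enrichment was 0.711 across peaks, 0.816 for the 7072 promoter peaks and 0.415 for the 4528 distal peaks. These are descriptions across peaks of 1 list per class, which are not independent replicates. The summits of a pair lay a median of 21 bp apart. Of the 11600 pairs, 409 differed by more than 50 percentile points in favour of Cux2 and 269 in favour of Tle4. Promoter peaks made up 45.5% and 24.5% of these, both below the 61.0% over all shared Cux2 peaks.

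The shared peak with the largest surplus in the Cux2 list was chr8:88962486-88962904, intergenic and 96.0 kb from Abcc12, at the 86.0th percentile for Cux2 and the 0.971th for Tle4, with fold enrichments of 15.7 and 6.14. The next were near Gpr65, Ttc30a2, Foxo6 and Nsg2, all intergenic, with differences between 81.4 and 82.6 points. The largest surplus in the Tle4 list was at chr5:46847197-46848245, 599 kb from Lcorl, at the 5.78th percentile for Cux2 and the 95.2th for Tle4, with fold enrichments of 7.93 and 18.2. It was followed by a peak at the promoter of Actr1a, a dynactin subunit gene, and by intergenic peaks nearest Zfp869, Slit2 and Pdk1, with differences of 82.7 to 88.9 points. The Slit2 region, 188 kb from the TSS of that guidance ligand, had fold enrichments of 7.41 for Cux2 and 15.1 for Tle4.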

How the data were processed

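ATAC-seq libraries of sorted neurons were aligned by the authors to mm9 with Bowtie2, duplicates were marked with Picard and peaks were called per group with MACS2 and the irreproducible discovery rate on 2 replicates, per the labels and the study's methods. A shift of the reads for the transposase is not given in the sources used here, and the peak names carry a control that these sources do not describe. The deposited lists hold, per peak, a whole-number score, a summit fold enrichment and −log10 p and −log10 q values. The score was the −log10 p times 10 and was not used. The lists hold no read depth, and the study's methods give 1 approximate depth for all libraries. The Cux2 P1 peak names carry a version mark.

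Peaks on chromosomes 1 to 19 and X were compared by 1 bp overlap, and annotated with GENCODE vM1 on NCBIM37, the same build. Scripts ran in Python 3.11.15 with numpy 2.4.6 and pandas 2.3.3, and were tested on simulated lists. Shares carry 95% Wilson intervals. Marker symbols were matched directly or by RefSeq synonyms (Clim1 was not found), and 5 genes that share a family's prefix only were removed. Named genes were those with at least 3 class-only peaks of one class and at least 2 times as many as of the other (at most 6 per list), the 10 with the largest surplus per class and a set of layer and interneuron genes. Regions were the 5 highest of each kind. The members and lists were chosen with earlier results of these data known. Some named genes are not reported here. Examples of motifs were chosen after the shares were known. The alternatives were other overlap rules, thresholds, promoter widths, windows and gene assignments.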

Additional observations from a re-analysis of the deposited data

Results flagged for a closer look

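Outside the chromosomes compared, the Cux2 P1 list held 7 mitochondrial peaks and the Tle4 P1 list 6, and the Cux2 P1 list held 4 peaks on the Y chromosome where the Tle4 P1 list had none. They were marked because each is above 3, the limit that a count of 0 allows, and no list is a control. The other 10 lists held 2 to 7 mitochondrial and 0 to 6 Y peaks, so the P1 counts lay within the range of the other ages.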

How the results depend on the processing

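The class-only shares of the Cux2 and Tle4 lists were 50.5% and 44.8% with a reciprocal overlap of 50%, 48.3% and 42.4% with summits within 250 bp, 45.6% and 40.1% with no other peak within 1 kb, 33.5% and 49.5% with one −log10 p threshold, 38.9% and 39.2% with the strongest 9754 peaks each, and 43.2% and 43.4% with the Cux2 list shortened to the Tle4 length. The promoter shares of Cux2-only, Tle4-only and shared peaks were 16.2%, 5.93% and 59.4% with promoters of 500 bp, 23.1%, 10.8% and 63.6% with 2500 bp, 16.7%, 6.14% and 59.3% with protein-coding TSSs, 17.5%, 11.6% and 65.9% with one −log10 p threshold, and 20.5%, 10.5% and 62.0% with reciprocal overlap. Over whole peaks, distal Tle4-only GC was 43.1% and the Cux2-only CpG ratio 0.246. With one −log10 p threshold the Tle4-only CpG ratio was 0.199. Ranked by −log10 p, the median percentiles were 31.1 and 35.5. Genes with more Cux2-only or Tle4-only peaks were 34.4% and 12.3% with every TSS within 50 kb, and 9.40% and 15.7% with one −log10 p threshold. The causes were not tested.

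The mean difference over ages was between 22.4 and 37.3 points in the Cux2 lists and between 24.7 and 39.98 in the Tle4 lists when each age was left out. In the Cux2 lists it was 4.30 (exact permutation p = 0.25) with lists of equal length and 23.1 (p = 0.25) with reciprocal overlap. In the Tle4 lists it was 10.1 (exact permutation p = 0.0625) with lists of equal length. Leaving out windows with a repeated word, chosen after seeing the data, kept the counts of motifs at 10 and 3, as did windows of 200 bases, while one −log10 p threshold gave 9 and 3. On the log2 scale the ratio of Cux2-only to Tle4-only shares for CTCF was 2.87, and 2.24 with that threshold. With 200 bases the ratios moved from 1.87 to 2.80 for SOX, from −0.92 to −1.78 for T-box and from −1.12 to −2.11 for the cut site. No paired analysis was possible because each pair of replicates was joined into 1 list. The lists do not give the depth of each library, and absence from a list is absence at the threshold of that list.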
